A study of Mus musculus with 5 samples.

Results

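The receptors through which growth factors act on myeloid cells are encoded in the mouse by 7 genes that were taken here by symbol: Csf1r, Flt3, Csf3r, Csf2ra, Il3ra, Csf2rb and Csf2rb2. They are 7 of the 21774 protein-coding genes of the RefSeq annotation of GRCm38.p6 (mm10). A DNaseI hypersensitive site (DHS) was assigned to a gene if its edge came within 1 kb of any transcription start site (TSS) of the gene, which is called a promoter site below, or if its middle lay inside the gene or up to 100 kb from its TSS with no protein-coding gene nearer. By this rule the 7 genes held 52 of the 135173 sites in 5 lists. To compare stages, sites were reduced to their central 500 bp, and those windows that shared at least 25% of that length were joined across stages, which gave 31 regions at the 7 genes of 68846 in all. A region is said to be open in a stage where it holds a window of that stage.

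Growth factor receptors of myeloid cells fall into 2 families. Csf1r, the receptor of CSF-1 and IL-34, and Flt3, the receptor of Flt3 ligand, are receptor tyrosine kinases: Flt3 acts mainly in early progenitors, and Csf1r carries the survival and differentiation signal of macrophages. The other 5 genes encode cytokine receptor chains that have no kinase of their own and signal through JAK kinases: Csf3r forms the receptor of G-CSF on neutrophils and their precursors, Csf2ra and Il3ra encode the ligand-binding alpha chains for GM-CSF and IL-3, Csf2rb encodes the beta chain shared by the receptors for GM-CSF, IL-3 and IL-5, and Csf2rb2 encodes a second beta chain of the mouse that serves IL-3 alone.

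The lists come from DNaseI-seq, which finds stretches of chromatin that DNase I can cut, in an embryonic stem cell line of mouse strain 129 differentiated in culture. All 5 populations descend from this line, which carries a GFP reporter of Brachyury (Bry). GFP marked both early populations, of which mesoderm (MES) was sorted as FLK1- and the hemangioblast population (HB) as FLK1+. Hemogenic endothelium (HE) was Bry.GFP+, Tie2+ and Ckit+ and lacked CD41, hematopoietic progenitors (HP) had gained CD41, and macrophages (MAC) were grown from CD41+ cells and sorted for CD11b. Each stage was 1 list of positions (n = 1), without heights or read counts, so no difference between stages can be set against a spread between replicates and no test between stages was made.

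The lists held 17734 to 37456 sites with median widths of 600 to 1200 bp, HP being the shortest and MAC the longest list and the one with the narrowest sites. Depth is unknown from positions alone, and where no site was listed the chromatin may still have been cut. The label of MAC names 2 replicates behind its list. The sorting markers T (Brachyury, in MES and HB), Tek (Tie2, in HE), Itga2b (CD41, in HE and HP) and Itgam (CD11b, in MAC) had promoter sites in a few stages, Kit in all but MAC and Kdr (FLK1) in all 5. The HE cells, sorted as CD41-, thus had a listed site at Itga2b, and the FLK1- MES cells had 1 at Kdr.

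The stretches on which the comparisons below rest are given here in the orientation of each gene, read from GRCm38.p6. Capitals mark every exact match to 8 fixed motifs, searched on both strands. GAGGAAG was taken for PU.1, the factor that commits cells to the myeloid fate. TGTGGT was taken for RUNX factors, which are needed for blood to arise from endothelium. TTGCNNAA stands for the CEBP family of granulocyte and macrophage genes. The letters TGANTCA mark AP1, a mediator of many growth and stress signals. For GATA factors, of blood and endothelium, the letters were AGATAA. The TEAD factors of the Hippo pathway were read as GGAATG. TTCNNNGAA stands for the STAT factors that act below cytokine receptors, and a pair of GAAA with 2 bases between them for IRF, the interferon regulatory factors. A match on the other strand appears as the reverse complement of these letters. The Flt3 stretch before the TSS is shared by the sites of MES, HB, HE and HP. Csf3r is shown by the middles of its 2 MAC sites. The stretch of Csf2ra is the middle of the bases common to all 5 stages and runs through exon 2, with 127 of its 300 bases coding. That of Il3ra ends where the first annotated transcript starts and is common to all 5 stages, and that of Csf2rb is the middle of the bases common to HB, HE, HP and MAC.
Flt3 before the TSS, chr5:147400490-147400592, minus strand: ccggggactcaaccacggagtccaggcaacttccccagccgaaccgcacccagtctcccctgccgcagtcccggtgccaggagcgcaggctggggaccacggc
Csf3r outer MAC site, chr4:126017857-126018156, plus strand: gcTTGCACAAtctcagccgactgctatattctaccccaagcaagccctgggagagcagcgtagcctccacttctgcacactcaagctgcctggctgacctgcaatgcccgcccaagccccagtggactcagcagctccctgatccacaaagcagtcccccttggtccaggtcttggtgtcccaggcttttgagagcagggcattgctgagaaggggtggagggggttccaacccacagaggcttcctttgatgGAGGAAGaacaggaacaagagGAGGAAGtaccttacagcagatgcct
Csf3r inner MAC site, chr4:126018957-126019256, plus strand: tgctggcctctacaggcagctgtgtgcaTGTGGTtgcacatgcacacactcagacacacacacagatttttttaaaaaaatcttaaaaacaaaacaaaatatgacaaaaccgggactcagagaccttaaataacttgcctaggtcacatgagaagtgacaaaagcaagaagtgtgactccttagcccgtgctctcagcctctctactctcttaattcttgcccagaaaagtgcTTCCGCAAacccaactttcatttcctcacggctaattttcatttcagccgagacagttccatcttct
Csf2ra near the start, chr19:61227152-61227451, minus strand: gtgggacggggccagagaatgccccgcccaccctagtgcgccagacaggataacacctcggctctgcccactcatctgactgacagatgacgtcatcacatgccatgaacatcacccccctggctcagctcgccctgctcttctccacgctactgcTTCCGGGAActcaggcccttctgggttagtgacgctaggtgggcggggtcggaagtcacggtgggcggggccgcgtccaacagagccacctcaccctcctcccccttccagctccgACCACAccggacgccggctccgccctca
Il3ra before the TSS, chr14:14345612-14345911, plus strand: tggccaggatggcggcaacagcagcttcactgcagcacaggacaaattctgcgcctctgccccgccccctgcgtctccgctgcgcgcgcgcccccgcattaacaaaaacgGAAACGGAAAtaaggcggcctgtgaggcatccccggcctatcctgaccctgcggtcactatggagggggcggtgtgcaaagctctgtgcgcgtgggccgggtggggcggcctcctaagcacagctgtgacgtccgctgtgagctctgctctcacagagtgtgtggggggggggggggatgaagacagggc
Csf2rb upstream element, chr15:78320768-78321067, plus strand: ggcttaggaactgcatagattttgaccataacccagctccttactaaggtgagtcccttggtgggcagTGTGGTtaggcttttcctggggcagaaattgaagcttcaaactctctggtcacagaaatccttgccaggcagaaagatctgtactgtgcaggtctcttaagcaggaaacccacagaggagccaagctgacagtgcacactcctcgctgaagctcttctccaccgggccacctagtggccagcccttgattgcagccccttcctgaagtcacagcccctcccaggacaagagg

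Base composition differed between the printed stretches. Before the Flt3 TSS the GC share was 71.8% with 8 CpG in 103 bases, and no motif matched. Il3ra had a GC share of 65.7% with 22 CpG in 300 bases and 1 IRF match at position 111, counted from 1 at the 5′ end. Csf2ra had 65.3% with 20 CpG, a STAT match at 157 and a RUNX match at 273. The stretches upstream of Csf2rb and Csf3r held fewer CpG. The Csf2rb upstream element had 2 CpG and 1 RUNX match at 69, the outer Csf3r site 3 CpG with PU.1 matches at 254 and 275 and a CEBP match at 3, and the inner Csf3r site 5 CpG with a RUNX match at 29 and a CEBP match at 234. In the central 300 bp of all 68842 regions outside the mitochondrial chromosome, PU.1 letters were found in 19.2%, RUNX in 22.6%, CEBP in 13.6%, STAT in 8.94%, IRF in 3.62%, AP1 in 17.0%, GATA in 15.1% and TEAD in 17.5%. A match describes the letters and not a bound factor. RefSeq promoter sequences were matched for 5 of the 7 genes, and Csf1r and Csf2rb had none in the table used.

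To see when the receptor genes had a site at their start, promoter sites were compared over the 5 stages. The 7 genes fell into 4 patterns. Csf2ra and Il3ra, the alpha chains, had a promoter site in all 5 stages, which 42.0% of protein-coding genes had. Flt3 had 1 in all stages but MAC, a pattern of 3.81% of genes. Csf1r and Csf2rb had 1 in MAC only, as did 1.72% of genes. Csf3r and Csf2rb2 had none in any stage, as did 34.3% of genes. In numbers, 3 of the 7 genes had a promoter site at each stage up to HP and 4 of them in MAC, while the shares over all protein-coding genes, from MES to MAC, were 55.5%, 57.1%, 59.9%, 48.6% and 48.7%. Between HP and MAC the set of receptors changed more than its size: Flt3 left it, and Csf1r and Csf2rb entered. The MAC promoter sites of Csf1r (500 bp) and Csf2rb (300 bp) were both narrower than the MAC median of 600 bp, and when each list was kept to sites at least as wide as its median neither gene had a promoter site in any stage.

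Counted over whole loci, sites of the receptor genes were most frequent in MAC, which had 19, while HE had 11, HB 10, and MES and HP 6 each. At least 1 site was assigned to 4 of the 7 genes in MES, where 63.7% of all genes had 1. In HB (65.4% of all genes), HE (69.0%) and MAC (64.5%) it was 6 of the 7, and in HP (56.8%) it was 5. The mean per receptor gene was 2.71 sites in MAC against 1.63 over all protein-coding genes, and Csf1r alone gave 8 of the 19. In the other stages the means lay closer together, HB having 1.43 against 1.13, HE 1.57 against 1.47, HP 0.857 against 0.842 and MES 0.857 against 1.02. The MAC list was also the longest of the 5, and how far its length bears on the count was not tested. With MAC cut to its widest sites, as many as HP has, 10 of the 19 were left, and 47.3% of the whole MAC list.

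**Figure D1:**
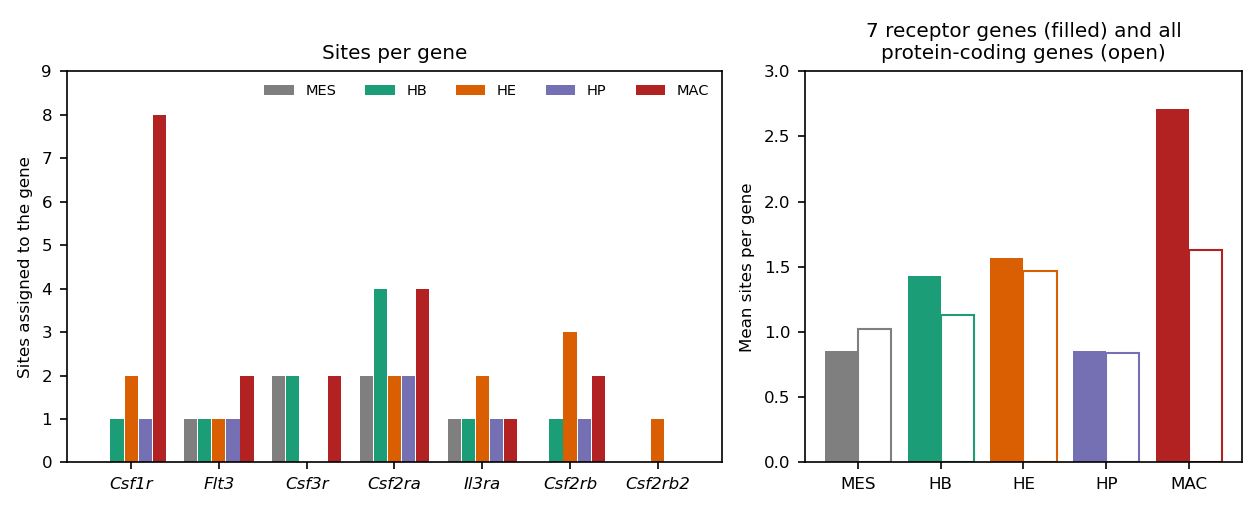
Left, sites assigned to each receptor gene (vertical axis, number of sites) in MES, HB, HE, HP and MAC (colours), 1 list per stage. Right, mean sites per gene for the 7 receptor genes (filled bars) and for all protein-coding genes (open bars) by stage. Csf1r reaches 8 sites in MAC, and the filled MAC bar, 2.71, stands above the open bar, 1.63.

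Sites of the receptor genes were carried from stage to stage to a varying degree. Of the HB sites, 5 of 10 overlapped a MES site by at least 1 bp, against 73.2% of the whole HB list. Of the HE sites, 6 of 11 overlapped an HB site (51.3% of the HE list). All 6 HP sites overlapped an HE site (86.0% of the HP list), and no region of these genes was open in HP alone. Of the 19 MAC sites, 6 overlapped an HP site (32.1% of the MAC list) and 7 a site of any earlier stage (45.5% of the MAC list). The 12 other MAC sites had no counterpart in the 4 earlier lists. The share of MAC sites that overlapped an earlier site was thus 36.8% (19.1 to 59.0%, 95% Wilson interval of the counting error alone), and the value of the whole list fell inside it.

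Most regions of the receptor genes belonged to a single stage. Of the 31, 24 were open in 1 stage (77.4%, 60.2 to 88.6%, 95% Wilson interval), against 60.2% of all regions. Open in MAC only were 14 (45.2%, 29.2 to 62.2%), against 31.0% of all regions. Of these 14, 2 had MAC sites that overlap a site of an earlier stage. Csf1r alone gave 7 of the 14, and it held 9 of the 31 regions. The intervals treat regions of 1 gene as independent. The rest of the single-stage regions were 6 in HE, 3 in HB, 1 in MES and 0 in HP. For these stages the shares of all regions are not given here. Open in all 5 stages were 3 regions (9.68%, 3.35 to 24.9%, against 13.2%), 1 at Il3ra and 2 at Csf2ra. A rarer pattern was shared by Csf1r and Csf2rb: 1 region of each was open in every stage but MES, as were 361 of all regions (0.524%). Where overlapping intervals were joined instead of windows, the 7 genes had 28 elements, of which 20 belonged to 1 stage (71.4%, 52.9 to 84.7%, against 57.6% of all 65654 such elements) and 12 to MAC only (42.9%, 26.5 to 60.9%, against 31.1%). Of the others, 2 belonged to 2 stages, 3 to 4 stages and 3 to 5 stages. By position, 14 of the 31 regions had their middle upstream of the gene, 12 in an intron, 1 in the untranslated part of an exon and 4 downstream.

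**Figure D2:**
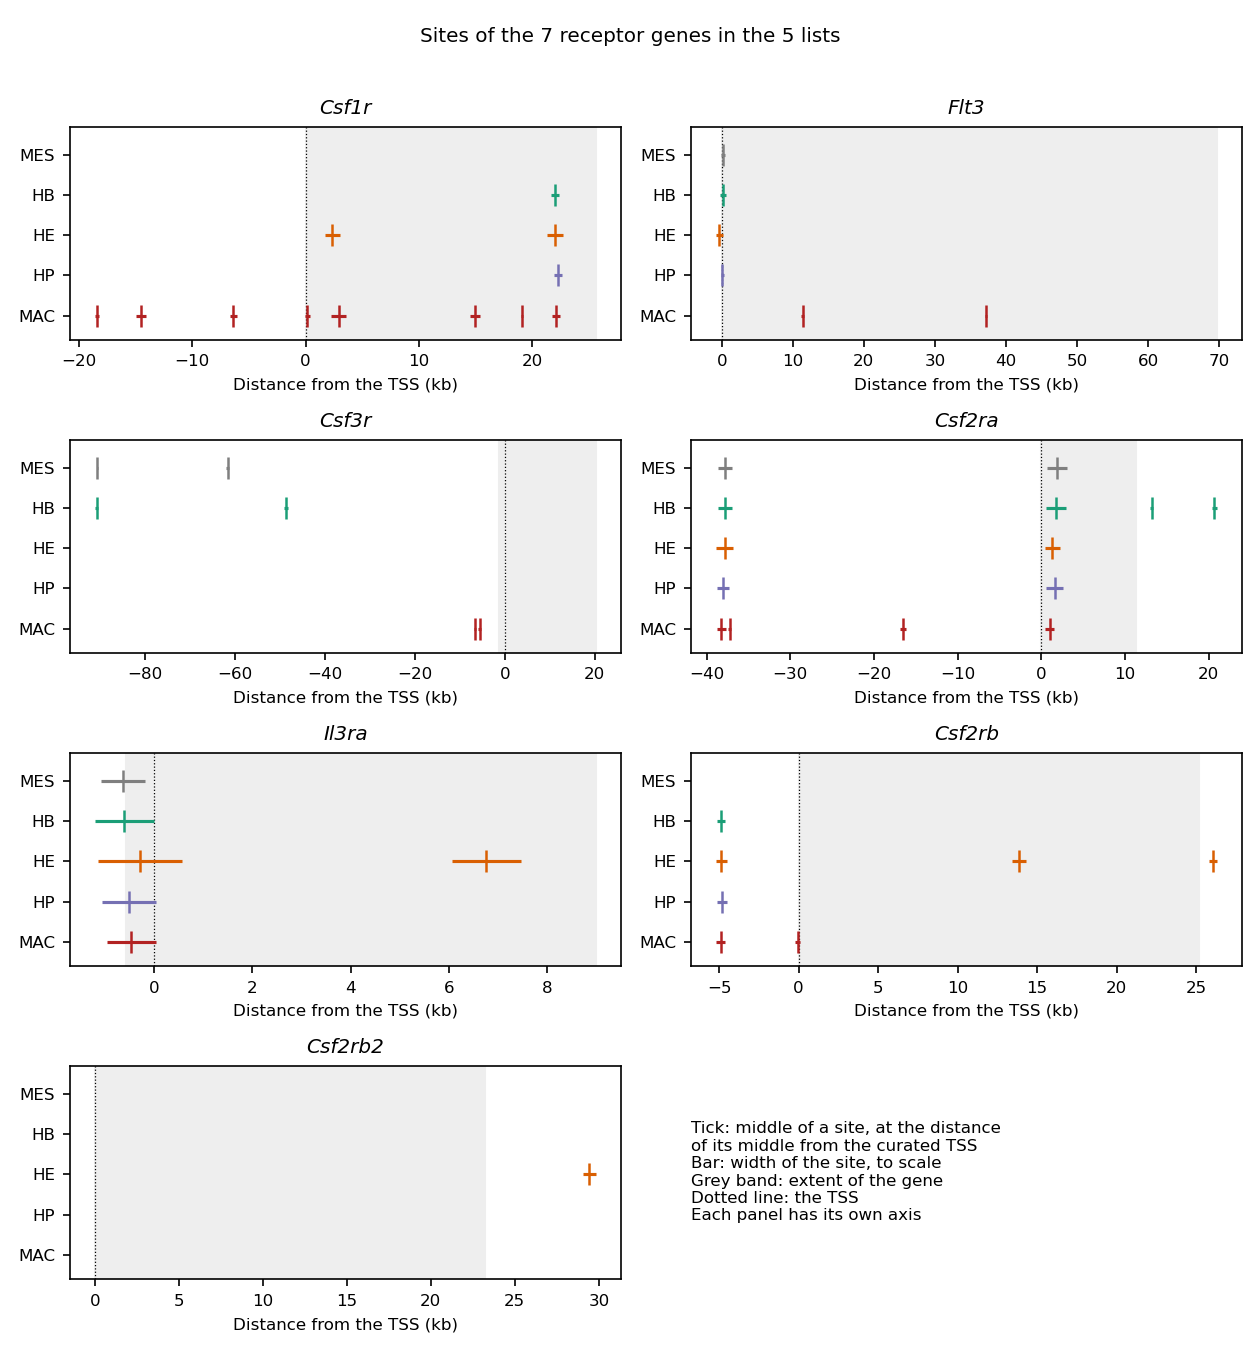
Sites of the 7 receptor genes in MES, HB, HE, HP and MAC (rows of each panel), by the distance of their middle from the curated TSS in kb (horizontal axis, a separate scale for each gene). Ticks mark middles, horizontal bars the width of a site and grey bands the gene. The MAC row of Csf1r holds 8 sites from 18.4 kb before to 22.1 kb after the TSS, and Csf2rb2 has a single site, in HE.

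Csf1r (chromosome 18, 61105572 to 61131139, plus strand, 22 exons) had 8 of its 12 sites in MAC. No site was assigned to it in MES, where the nearest listed site of any gene was 36.8 kb from its TSS. HB had 1, HE 2 and HP 1. The 8 of MAC are a number that 2.85% of protein-coding genes reach in MAC, and 7 of its 9 regions were open in MAC only, which 1.83% of genes reach. The 8 MAC sites ran along the locus, at 18.4, 14.6 and 6.40 kb before the TSS, at the start itself (61105472 to 61105971, 500 bp, middle in intron 1), and in introns 2, 11, 13 and 15. The site in intron 13 was narrow, 200 bp, with 33192 sites of the MAC list wider than it.

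The 2 intronic elements of Csf1r that had a site before MAC followed different courses. Intron 15 was listed in HB (700 bp), HE (1400 bp), HP (700 bp) and MAC (700 bp), at 22.0 to 22.3 kb from the TSS, with 411 bp common to all 4, so this element was listed before any site at the start of the gene. It lay 0.254 to 0.543 kb from a start of Gm52352, an annotated non-coding gene inside Csf1r, by the middles of its sites. The MAC sites in introns 11 and 13 lay 1.67 and 2.48 kb from a start of Gm52352, also nearer than that of Csf1r. Intron 2, which is known to hold the Fms intronic regulatory element of macrophages, had a site in HE (61107284 to 61108583, 1300 bp) and in MAC (61107772 to 61109171, 1400 bp) and none in HP. These 2 sites shared 812 bp, while their 500-bp windows stayed separate regions, 1 in HE and 1 in MAC. The MAC site there was wider than 98.0% of the MAC list, and 444 sites of that list were wider. The HE site came to 1.71 kb from the TSS, so a promoter reach of 2 kb gave Csf1r a promoter site in HE as well as in MAC.

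Flt3 (chromosome 5, 147330741 to 147400489, minus strand, 24 exons) had its promoter site before MAC. The site was widest in HE (1000 bp), then HB (900 bp), MES (600 bp) and HP (400 bp). All 4 covered the TSS and had 267 bp in common, of which the part before the TSS is printed above. The HE site lay further upstream, its middle 0.337 kb before the TSS, where those of MES, HB and HP lay 0.181, 0.139 and 0.0960 kb after it, and its window was a region of its own. Kept to sites at or above the median width, the promoter site was listed in HB alone. The HP site was among the narrow ones of its list, of which 3.82% were narrower. In MAC no site came within 1 kb of a TSS of Flt3. Its 2 MAC sites were both intronic and were found in no other stage, and the one nearer to the TSS was 500 bp wide in intron 1, 11.4 kb from it. A promoter reach of 2 kb gave Flt3 a promoter site in MAC as well, at a predicted start inside the gene. Kit, the receptor of stem cell factor and of the same kinase family, was the only gene among 42 of the pathway with the promoter pattern of Flt3.

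For Csf3r (chromosome 4, 126023441 to 126044975, plus strand, 17 exons) no promoter site was listed in any stage, and sites were found in MES, HB and MAC only. MES had sites 90.7 and 61.6 kb before the TSS, of 300 and 600 bp. HB had sites 90.8 and 48.7 kb before it, of 800 and 900 bp, and the outermost MES and HB sites shared 300 bp. HE and HP had none, and the nearest site of any gene lay 14.2 kb from a start of Csf3r in HE and 14.3 kb in HP. MAC had a pair of sites, each 600 bp wide, with middles 6.65 and 5.55 kb before the curated TSS. Their nearer edges lay 5.13 and 4.04 kb from the nearest annotated start. These MAC sites overlapped no site of another stage. They are the 2 printed above, and the MAC region of the outer site held 2 PU.1 and 3 CEBP matches in its 500 bp, that of the inner site 1 RUNX, 1 CEBP and 1 TEAD match. A non-coding gene, Gm32908, starts 4.60 and 3.50 kb from their middles, nearer than Csf3r. The MES and HB sites likewise all lay nearer to the start of a non-coding gene. For both MES sites and the outermost HB site this was 2610028E06Rik, at 11.6, 40.6 and 11.4 kb. For the other HB site it was Gm32908, at 46.6 kb.

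The alpha chain gene Csf2ra (chromosome 19, 61217191 to 61228461, minus strand, 12 exons) held 2 elements listed in all 5 stages. The element near its start did not cover the TSS: the nearer edge of the site lay 0.389 kb after it at the HE stage, 0.456 kb at MAC, 0.587 kb at HP, 0.588 kb at HB and 0.679 kb at MES. From there it extended over the early exons and introns, for 2400 bp at MES, 2400 bp at HB, 1800 bp at HE, 2000 bp at HP and 1100 bp at MAC, and 877 bp were common to all 5. These were wide sites: only 3 sites of the MES list, 7 of the HB list and 16 of the HP list were wider, while 2182 were in HE and 2182 in MAC. The central 500 bp of its region had a GC share of 69.2% and a CpG ratio (observed over expected) of 0.958. A promoter reach of 100 bp left Csf2ra without a promoter site in any stage, as did distances taken from the middle of a site.

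Further from the start, an element 38.0 kb before the TSS of Csf2ra was listed as 1 site of 1700 bp at MES, 1700 bp at HB, 2100 bp at HE and 1400 bp at HP, and as 2 sites, of 1000 and 400 bp, at MAC. Both MAC sites overlapped the site of every earlier stage. HB also had sites 13.2 and 20.7 kb after the TSS, downstream of the gene, which made 4 in that stage, a number reached by 5.28% of genes in HB. MAC had 1 more, of 800 bp, 16.5 kb before the TSS. By stage Csf2ra thus had 2, 4, 2, 2 and 4 sites in MES, HB, HE, HP and MAC.

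Il3ra (chromosome 14, 14345912 to 14355493, plus strand, 12 exons), the alpha chain for IL-3, had the steadiest record of the 7. Its promoter site was 900 bp wide at MES, 1200 bp at HB, 1700 bp at HE, 1100 bp at HP and 1000 bp at MAC, and 784 bp were common to all 5. In every stage the site covered an annotated start of the gene, and the central 500 bp of its region had a GC share of 60.8% and a CpG ratio of 0.823. The 1 further site was in HE, 1400 bp in intron 10, 6.76 kb from the curated TSS. This region had 4 CEBP matches, the most of any of the 31.

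Csf2rb (chromosome 15, 78325800 to 78351001, plus strand, 15 exons), the shared beta chain, had an upstream element listed before its promoter. The element measured 500 bp at HB, 700 bp at HE, 600 bp at HP and 600 bp at MAC, with 486 bp common to the 4 stages and middles 4.83 to 4.91 kb before the TSS. Nothing was assigned to Csf2rb in MES, where the nearest listed site lay 79.6 kb from its TSS. A promoter site of 300 bp over the TSS (78325786 to 78326085) was listed in MAC only, and its region held 2 PU.1 matches, 1 CEBP, 1 GATA and 1 STAT match. HE added a site of 900 bp in intron 5 and a site of 500 bp downstream, neither of them found in HP or MAC. Csf1r and Csf2rb therefore shared a course: no site in MES, 1 element outside the promoter from HB on, more sites in HE, and a promoter site in MAC alone. This course rests on sites narrower than the median of their lists: kept to sites at or above it, intron 15 of Csf1r was listed in HE and MAC and the Csf2rb element in MAC alone. With lists cut to equal length, intron 15 stayed in all 4 stages and the Csf2rb element in HP and MAC.

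Csf2rb2 (chromosome 15, 78282507 to 78305721, minus strand, 14 exons), the beta chain of IL-3 only, had 1 site in all, of 800 bp in HE, 29.4 kb after its TSS and downstream of the gene. The 2 beta chain genes start back to back, and the Csf2rb upstream element lies between the starts, 14.9 to 15.0 kb from that of Csf2rb2. As Csf2rb is nearer, the element was assigned to Csf2rb. Sequence shared by the 2 genes limits where reads of 50 bases can be placed uniquely. Of the 50-base stretches of Csf2rb, 84.9% occur once in the genome, and 77.4% within 1 kb of its TSS. For Csf2rb2 the values were 83.2% and 96.1%, and for the other 5 genes 91.4 to 100% over the gene. Of the Csf2rb stretches, 14.4% also occur in Csf2rb2, and 15.6% the other way. At the 52 sites themselves the share was at least 90% for 49, with the lowest, 72.6%, at the HE site in intron 5 of Csf2rb. The part of repeated sequence in the missing sites was not tested.

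**Figure D3:**
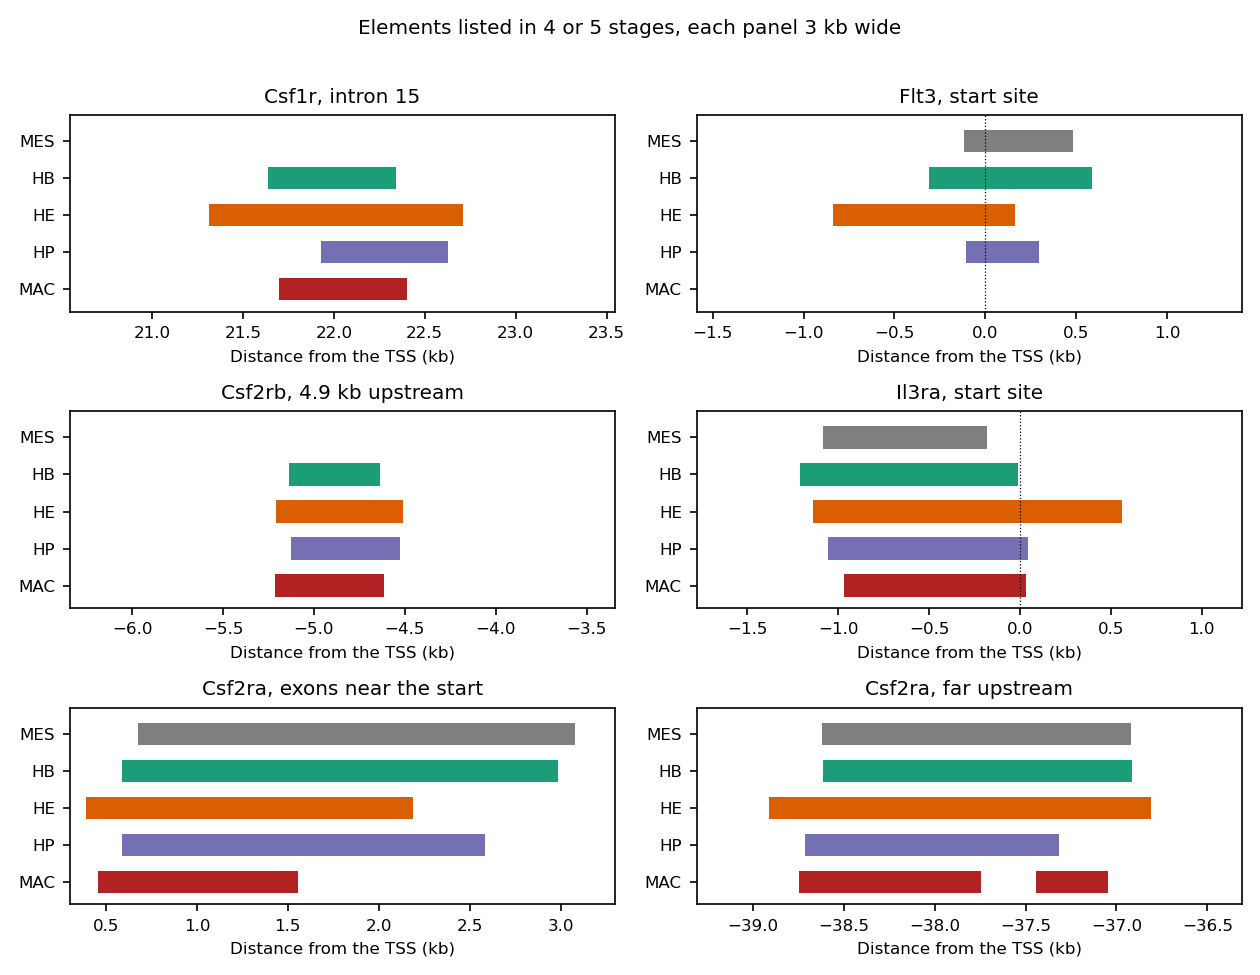
The 6 elements listed in 4 or 5 stages, each bar a site drawn to scale by distance from the curated TSS in kb (horizontal axis, 3 kb per panel), with MES, HB, HE, HP and MAC as rows and the TSS as a dotted line where it falls in the panel. Intron 15 of Csf1r and the element 4.9 kb upstream of Csf2rb have bars from HB to MAC and none in MES, and the Flt3 start has bars from MES to HP and none in MAC.

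Motif letters were counted in the central 500 bp of the 31 regions and of all 68842 regions. Joined windows can be longer, so the STAT match of Csf2ra and the IRF match of Il3ra printed above fall outside these counts. RUNX letters were in 13 of the 31 (41.9%, against 33.2% of all), PU.1 in 10 (32.3%, against 27.0%), CEBP in 9 (29.0%, against 20.4%), AP1 in 8 (25.8%, against 22.7%), TEAD in 8 (25.8%, against 26.7%), GATA in 7 (22.6%, against 23.0%), STAT in 4 (12.9%, against 14.5%) and IRF in 4 (12.9%, against 6.10%). For each of the 8 motifs the value over all regions fell inside the 95% Wilson interval of the 31. Among the 14 regions open in MAC only, 7 held PU.1 letters (50.0%, 26.8 to 73.2%, against 35.3% of all MAC-only regions). RUNX letters were in 6 (against 41.2%), AP1 in 6 (33.5%), CEBP in 5 (30.3%), TEAD in 5 (23.4%), IRF in 3 (8.50%), GATA in 2 (20.7%) and STAT in 2 (17.3%). The 6 with AP1 letters were all at Csf1r. For each motif the value over all MAC-only regions fell inside the interval of the 14. At Csf1r, AP1 letters were in 7 of the 9 regions but in the central 200 bp of only 2, while CEBP letters were in the intron 15 region alone, 3 times. Regions rich in CpG were 3 of the 31, at the starts of Flt3, Csf2ra and Il3ra, against 18.2% of all regions.

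The other genes of the pathway were read from a list of 42 genes. Of the 6 ligands, 1 had a promoter site in MES and in HB, 3 had 1 in HE and in HP, and 2 had 1 in MAC. Csf1, which encodes the main ligand of Csf1r, had 1 in all 5 stages, Il34 in HE and HP, and Flt3l in HE, HP and MAC. For Csf2, Csf3 and Il3, which encode GM-CSF, G-CSF and IL-3, none was listed in any stage. Of 9 related receptors the numbers were 5, 5, 5, 4 and 4. Among these Il5ra, the alpha chain that pairs with Csf2rb, and Il7r had no promoter site, like Csf3r and Csf2rb2, and Pdgfrb, a kinase of the Csf1r family, had 1 in HP only.

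The signalling genes below the receptors, their negative regulators and a list of myeloid transcription factors were read against the same shares over all protein-coding genes, which from MES to MAC were 55.5%, 57.1%, 59.9%, 48.6% and 48.7%. Of 14 genes of signalling, which include Jak2 and Stat5a, 12 had a promoter site in MES and in HB, 13 had 1 in HE and all 14 in HP and in MAC, and 11 of them had 1 in all 5. Of 6 negative regulators, such as the Socs genes, the numbers were 5, 5, 6, 4 and 6. Of 7 transcription factors of myeloid cells they were 3, 3, 5, 4 and 5, with Cebpb and Cebpe at none. Over all 42 genes the numbers were 26, 26, 32, 29 and 31. None of the 42 had a promoter site in MAC only, a pattern that 1.72% of all protein-coding genes show, and 21 had 1 in all 5 stages, where the share over all genes was 42.0%.

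**Figure D4:**
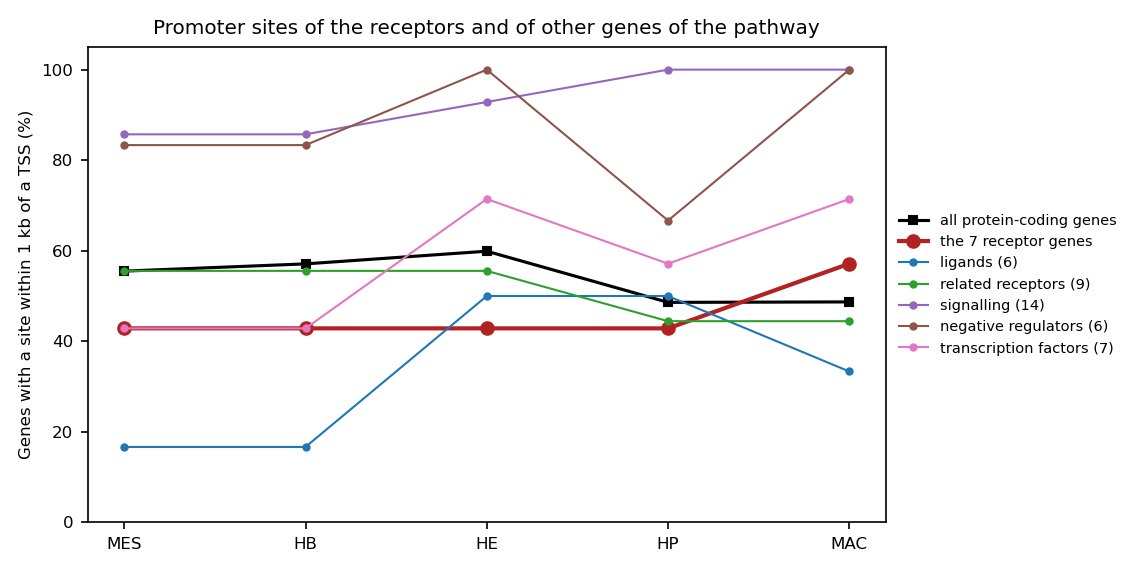
Share of genes with a site within 1 kb of a TSS (vertical axis, %) by stage, for the 7 receptor genes, 5 lists of other pathway genes (number of genes in brackets) and all protein-coding genes. The receptors stand at 3 of 7 genes up to HP and 4 of 7 in MAC, below the signalling genes in each stage.

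No gene could be named as closest to a receptor gene in its use of sites. For the 3 receptors with at least 5 regions, genes with the same promoter pattern were ranked by the sum over stages of the differences in open regions. Csf1r was nearest to 4 genes at a sum of 2, Csf3r to 10 genes at 1 and Csf2ra to 12 genes at 1, more than could be set apart.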

How the data were processed

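Per the labels and the methods of the study, the authors digested sorted cells with DNase I, sequenced the small fragments, aligned CutAdapt-trimmed reads to mm10 with Bowtie, discarded reads with several placements, took out duplicates with Picard and found sites with DFilter, whose bin was 100 bp. The submitters' processing notes also name HOMER. Versions were not given in the sources used here. What the authors deposited is 1 list of positions per stage, each site as its start and end. They carry no count, height or p-value, so depth cannot be read from them, and intervals cover counting error only. The study's supplement reports numbers of aligned reads for its experiments, which were not used here.

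Positions were read with Python 3.11.15 and numpy 2.4.6, intervals were computed with scipy 1.17.1, and figures were drawn with matplotlib 3.10.9. TSS came from RefSeq GRCm38.p6. Promoter sites used all transcripts, and the nearest gene used curated mRNAs (21000 genes). CpG-rich means a GC share of at least 50% and an observed to expected CpG ratio of at least 0.6 in 500 bp. Named were all 7 receptor genes, pathway genes with the promoter pattern of a receptor or a site in 1 stage only, nearer neighbours, and genes alike in sites where at most 3 tied. Further pathway genes in the text were named after their values were seen. The receptor genes, motifs and lists were chosen with earlier results of these data known. No test between stages was possible with n = 1. Merging, assignment, motif search and the search of 50-base stretches (numba 0.67.0) were tested on simulated data. The alternatives were other reaches, widths, merging and gene sets. Some items are not reported here.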

Additional observations from a re-analysis of the deposited data

How the results depend on the processing

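Of 89 values recomputed under an alternative, 70 stayed within 1.5 times the reported count or, for motif shares, within its Wilson interval. The promoter patterns of the receptor genes depended on reach and width. Kept to sites at least as wide as the median of their list, 2 receptor genes had a promoter site in MAC, the sites numbered 12 in MAC, 6 in HE, 5 in HB and 3 each in MES and HP, and 16 regions were left, 8 of them open in MAC only. With each list cut to its 17734 widest sites, the numbers were 2 receptor genes with a promoter site in MAC, 6 sites in HE, 10 in MAC, and 16 regions with 5 open in MAC only. In both settings Csf2ra and Il3ra had a promoter site in all 5 stages, Csf1r and Csf2rb in none, and Flt3 in HB alone under the median and in MES, HB and HP under the cut to equal length. A reach of 20 kb left 3 sites in MES and 6 in HB. When non-coding genes could also be nearest, HE had 7 sites, as 16 of the 36 sites outside the promoter rule lay nearer to the start of a non-coding gene. In the central 200 bp of the regions PU.1 letters were in 16.1% (14.1% of all regions), AP1 in 6.45% (13.0%) and IRF in 0% (2.41%). RUNX letters were in 29.0% (16.1% of all regions) and CEBP in 19.4% (9.68%), above the share of all regions as in the 500 bp. AP1 and IRF turned from above to below the share of all regions, and STAT (9.68% against 5.96%), GATA (16.1% against 10.5%) and TEAD (19.4% against 12.2%) from below to above. The cause was not tested. Other merging rules moved no count of regions by over 1.5 times.

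The lists hold positions only, so a site missing from a list sets no limit on how open the chromatin was. List length and site width differ between stages and cannot be told apart from the stages. No paired analysis was possible because each stage is 1 list and no test was made.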
